A study of Mus musculus with 8 samples.

Results

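The transferases studied here couple glucuronic acid, sulfate or glutathione to drugs, hormones, bile acids and bilirubin. They were compared between mouse livers with Hmgb1 deleted by Cre under the Albumin promoter and floxed control livers. They comprised every gene of the Ugt1 to Ugt3, Sult, Gsta, Gstk, Gsto, Gstp, Gstz and Mgst families that had a probe set of its own, 37 of the 19939 genes tested. The mu and theta glutathione transferases were not counted among them. Membership was set by gene symbol and not by any measured value.

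Tissue came from male littermates 8 weeks old. Hmgb1 encodes a chromatin protein that binds DNA. In the Hmgb1 deleted group (4 arrays) the floxed gene was removed by Cre under the Albumin promoter, which is active in hepatocytes. Hmgb1 was not measured by cell type, so which other liver cells keep the gene is not known here. The floxed control group (4 arrays) carried the floxed Hmgb1 alleles, and its titles name no Cre, so the effect of Cre and that of losing Hmgb1 cannot be told apart. The labels disagree on tissue (whole liver in one field, liver stellate cells in another) and on strain (C57Bl/6 in one, Balb/c in another). Hepatocyte markers read 11.77 to 14.03 over all 8 arrays and stellate cell markers 6.65 to 11.59, so the tissue was not stellate cells alone. The labels record 5 backcrosses for every sample.

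Conjugation makes fat-soluble molecules soluble enough to leave the cell. UDP-glucuronosyltransferases (Ugt) use UDP-glucuronic acid, cytosolic sulfotransferases (Sult) use the sulfate donor PAPS, and glutathione transferases (Gst in the cytosol, mitochondria and peroxisomes, Mgst in membranes) use glutathione. Hepatocytes carry much of this work, and transporters take up the substrates and export the conjugates to bile or blood.

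Values are log2 intensities, on which a difference of 1 is a doubling, and each difference is deleted minus control. On the Hmgb1 probe set the 4 deleted arrays gave 4.91, 4.20, 4.53 and 4.74, and the 4 control arrays 5.35, 5.42, 5.45 and 5.78, so the groups did not overlap (log2 fold change −0.905, SE 0.14, limma adjusted p = 0.0216). Of the 34 probe sets that Hmgb1 shares with other symbols, 33 passed the threshold and were lower in the deleted livers. The median log2 fold change of the 34 was −2.15. The probe set of Hmgb1 alone was dimmer than the median gene, so its fold change may be understated. Hepatocyte markers were bright on all 8 arrays, from 11.77 to 14.03, and all 10 had a lower mean in the deleted livers, though only 5 of 10 with quantile normalization and 9 of 10 with centred arrays, and 0 passed the threshold. Their summed level, the log2 of the added unlogged intensities, is led by the brightest markers. It was 16.06 to 16.51 on the deleted arrays and 16.48 to 16.56 on the control arrays. The lowest was deleted array 4, on which albumin was 13.26 against 13.93 to 14.03 elsewhere. The 10 stellate cell markers lay between 6.65 and 11.59, with 3 of them higher and 7 lower (4 and 6 with quantile normalization, 6 and 4 with centred arrays) and 0 past the threshold, and their summed level was 12.59 to 12.75 on the deleted arrays and 12.66 to 12.75 on the control arrays. The 8 sinusoidal endothelial markers all had a lower mean in the deleted livers, with log2 fold changes from −0.615 to −0.0475. Only Clec4g, the brightest, passed the threshold (−0.615, limma adjusted p = 0.00629). Their summed level, in which Clec4g weighs most, was 12.30 to 12.35 on deleted and 12.60 to 12.75 on control arrays. The summed levels of 2 further lists also did not overlap, with 0 markers past the threshold. They were 10.34 to 10.43 on deleted and 10.53 to 11.05 on control arrays for 3 erythroid markers, and 8.28 to 8.47 on deleted and 8.59 to 8.62 on control arrays for 4 cholangiocyte markers. Of the cholangiocyte markers only Sox9 was apart by itself (log2 fold change −0.35, limma adjusted p = 0.0854). Krt7, Krt19 and Epcam were dimmer than the median gene and their groups overlapped. With quantile normalization 2 erythroid markers and 1 cholangiocyte marker passed the threshold, all lower. The summed levels of the Kupffer cell, neutrophil, and T, B and NK cell lists overlapped between the groups, with 0 of their markers past the threshold. Floxed control 1 was an outlying array. The leading principal component, with 37.6% of the variance, placed it at −26.6 and the other 7 arrays between −11.4 and 11.7. The part of these shifts in the results was not tested. In whole tissue, fewer cells of a type and less RNA per cell cannot be told apart.

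No transferase gene passed the threshold, an adjusted p under 0.05 in limma over all genes, against 0.692% of all genes (138 of 19939, of which 59 were higher and 79 lower, or 153 higher and 111 lower with quantile normalization and 33 and 28 with centred arrays). At an unadjusted p under 0.05 there were 10 of the 37 (27.0%), 3 higher and 7 lower, against 9.46% of all genes, of which 4.93% were higher and 4.53% lower. The groups did not overlap for 3 members (8.11%), against 5.57% of all genes. These were Sult6b2, which was higher (3.27% of all genes were apart in this direction), and Ugt3a1 and Sult1c2, which were lower (2.3% of all genes). The mean was higher in the deleted livers for 15 members, lower for 21 and equal for 1 (17 and 20 with quantile normalization, 16 and 20 with centred arrays), with a median log2 fold change of −0.05 against 0 for all genes. The median size of the difference, whatever its sign, was 0.107 in the members and 0.0575 in all genes. It was 0.166 in the 24 members brighter than the median gene and 0.05 in the 13 dimmer ones. The members were not compared with genes of equal brightness.

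For 31 of the 37 members the 95% interval lay within a 1.5-fold change in either direction, against 19372 of all 19939 genes. For 35 members it lay within a 2-fold change, against 19818 of all genes. Intervals this narrow were thus less common among the members than among all genes. Of the 31 members, 11 were dimmer than the median gene. The 6 exceptions at 1.5-fold were Sult1e1, Ugt2b37, Ugt3a1, Sult1c2, Gstp3 and Sult5a1, and those at 2-fold were Sult1e1 and Ugt2b37.

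**Figure D1:**
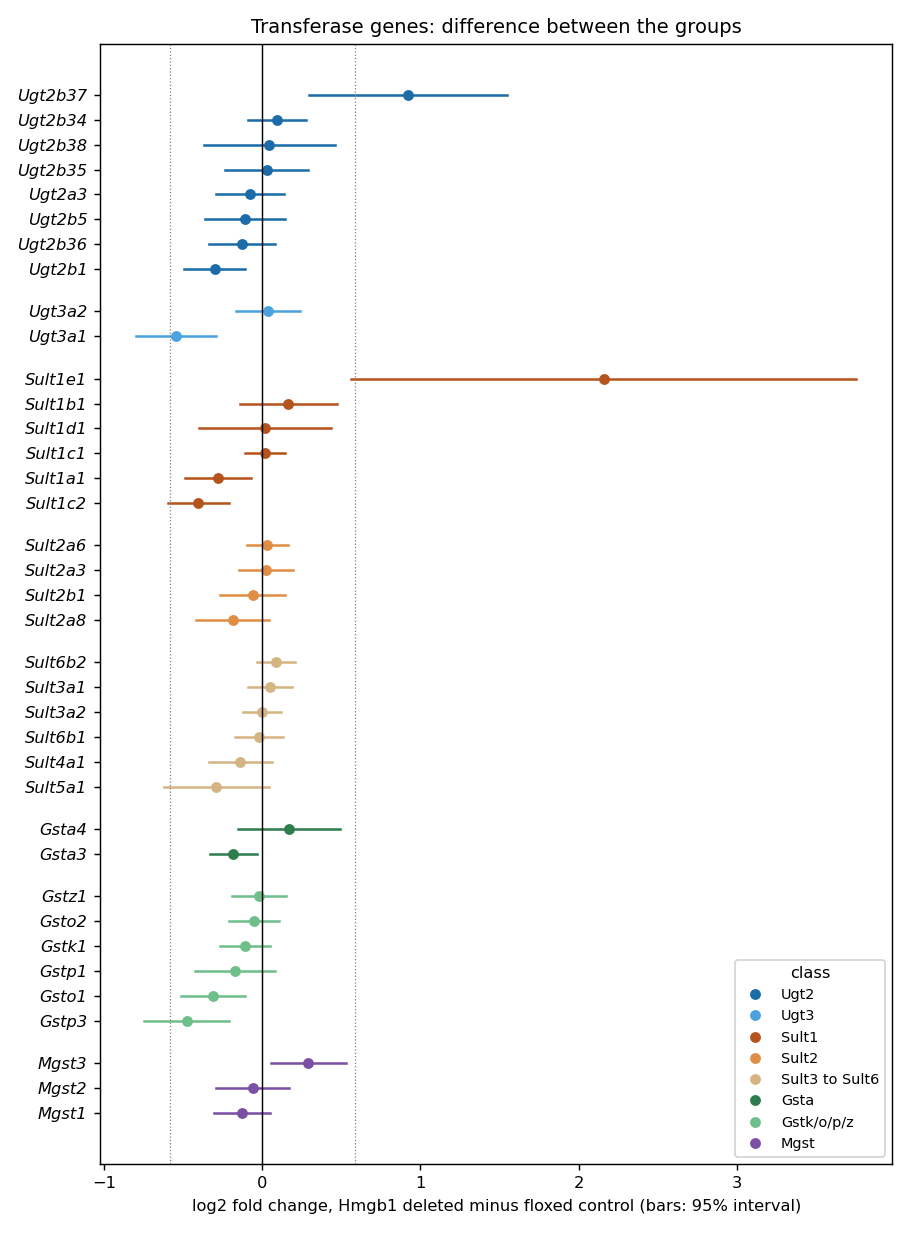
The horizontal axis gives the log2 fold change (Hmgb1 deleted minus floxed control) of each of the 37 transferase genes with its 95% interval, grouped by enzyme class down the page, with dotted lines at 1.5-fold. Sult1e1 lies farthest to the right at 2.16 with the widest interval, Ugt2b37 follows at 0.92, and Ugt3a1 lies farthest to the left at −0.545.

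Sult1e1, the estrogen sulfotransferase, which inactivates oestrogens by sulfation, showed the widest spread. Its 4 deleted arrays gave 8.54, 5.30, 4.44 and 7.57, against 4.65, 4.10, 4.03 and 4.43 on the 4 control arrays. Deleted arrays 1 and 4 were far above every other array and deleted array 2 moderately so, while deleted array 3 lay within the control range. The means were 6.46 ± 1.91 in deleted livers and 4.30 ± 0.29 in control livers (SD, n = 4 each). The log2 fold change of 2.16 (SE 0.72, 95% interval 0.56 to 3.76) was the most positive of all 19939 genes, yet the adjusted p was 0.298. Its SD among the deleted arrays ranked 2 among all genes. Leaving out 1 array at a time gave log2 fold changes of 1.47 (without deleted array 1) to 2.83, with adjusted p from 0.109 to 0.59. Only 3.09% of genes had a lower mean in the control livers, and the table holds no detection flags, so whether Sult1e1 was above background there is not known.

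The RefSeq promoter of Sult1e1 (GRCm38.p6, chr5:87591562-87591861, minus strand) is shown because this gene had the widest spread between deleted arrays. It covers 250 bases before and 50 after the start site. Capitals mark its only match among the motifs searched, the nuclear receptor half-site AGGTCA, read here on the opposite strand.
Sult1e1 promoter: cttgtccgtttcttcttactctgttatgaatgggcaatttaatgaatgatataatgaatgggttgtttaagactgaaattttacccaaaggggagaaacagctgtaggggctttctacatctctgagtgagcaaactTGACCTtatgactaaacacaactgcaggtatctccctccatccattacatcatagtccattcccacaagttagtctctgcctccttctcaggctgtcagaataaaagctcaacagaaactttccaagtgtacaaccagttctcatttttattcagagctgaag

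The other Sult1 genes differed less between the groups, by −0.405 to 0.165 on the log2 scale. Sult1c2, a sulfotransferase of phenols, had 6.19, 6.07, 5.89 and 6.19 on deleted arrays and 6.39, 6.51, 6.40 and 6.66 on control arrays. All 4 deleted values lay below all 4 control values, at a log2 fold change of −0.405 (SE 0.087, adjusted p = 0.0808). It passed the threshold under 3 of 17 alternatives, among them without floxed control 1 (−0.438, adjusted p = 0.0402). Sult1a1, the main phenol sulfotransferase of liver, had 10.13, 10.31, 9.97 and 10.18 on deleted arrays and 10.57, 10.20, 10.46 and 10.48 on control arrays. Control array 2 lay within the deleted range, and the other 3 control arrays above it (log2 fold change −0.28, SE 0.094, adjusted p = 0.302).

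Sult1d1, which sulfates catecholamines in the mouse, had 11.08, 11.07, 10.25 and 10.94 on deleted arrays and 11.18, 10.60, 10.57 and 10.91 on control arrays. The groups overlapped throughout (log2 fold change 0.02, SE 0.19). Sult1b1, which acts on phenols and thyroid hormones, had a log2 fold change of 0.165 (SE 0.14, adjusted p = 0.884), with overlapping groups. Sult1c1 had 4.77 ± 0.05 on deleted and 4.75 ± 0.05 on control arrays (SD, n = 4 each).

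Among the Sult2 genes, whose products sulfate steroids and bile acids, Sult2a8 was the brightest member. This bile acid sulfotransferase of mouse liver had 11.51, 11.70, 11.42 and 11.38 on deleted arrays and 11.42, 11.70, 11.90 and 11.74 on control arrays. The groups overlapped (log2 fold change −0.19, SE 0.10, adjusted p = 0.694). Sult2b1, a sulfotransferase of cholesterol and related sterols, differed by −0.06 and Sult2a6 by 0.03. Sult2a3 differed by 0.02, and 3 of these 4 Sult2 genes were dimmer than the median gene.

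The remaining sulfotransferases, Sult3 to Sult6, were mostly dim, 5 of 6 lying below the median gene. Sult6b2 had 4.68, 4.64, 4.66 and 4.73 on deleted arrays and 4.62, 4.58, 4.61 and 4.55 on control arrays. The deleted arrays were all above the control arrays, but the log2 fold change was 0.0875 (SE 0.055, adjusted p = 0.761). Sult5a1, the brightest of the 6, had 8.05, 7.45, 8.27 and 8.12 on deleted arrays and 8.40, 8.11, 8.32 and 8.22 on control arrays. Deleted array 2 was the lowest and the groups overlapped (log2 fold change −0.29, SE 0.15, adjusted p = 0.647). Sult4a1, best known from brain, differed by −0.14 (adjusted p = 0.777).

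**Figure D2:**
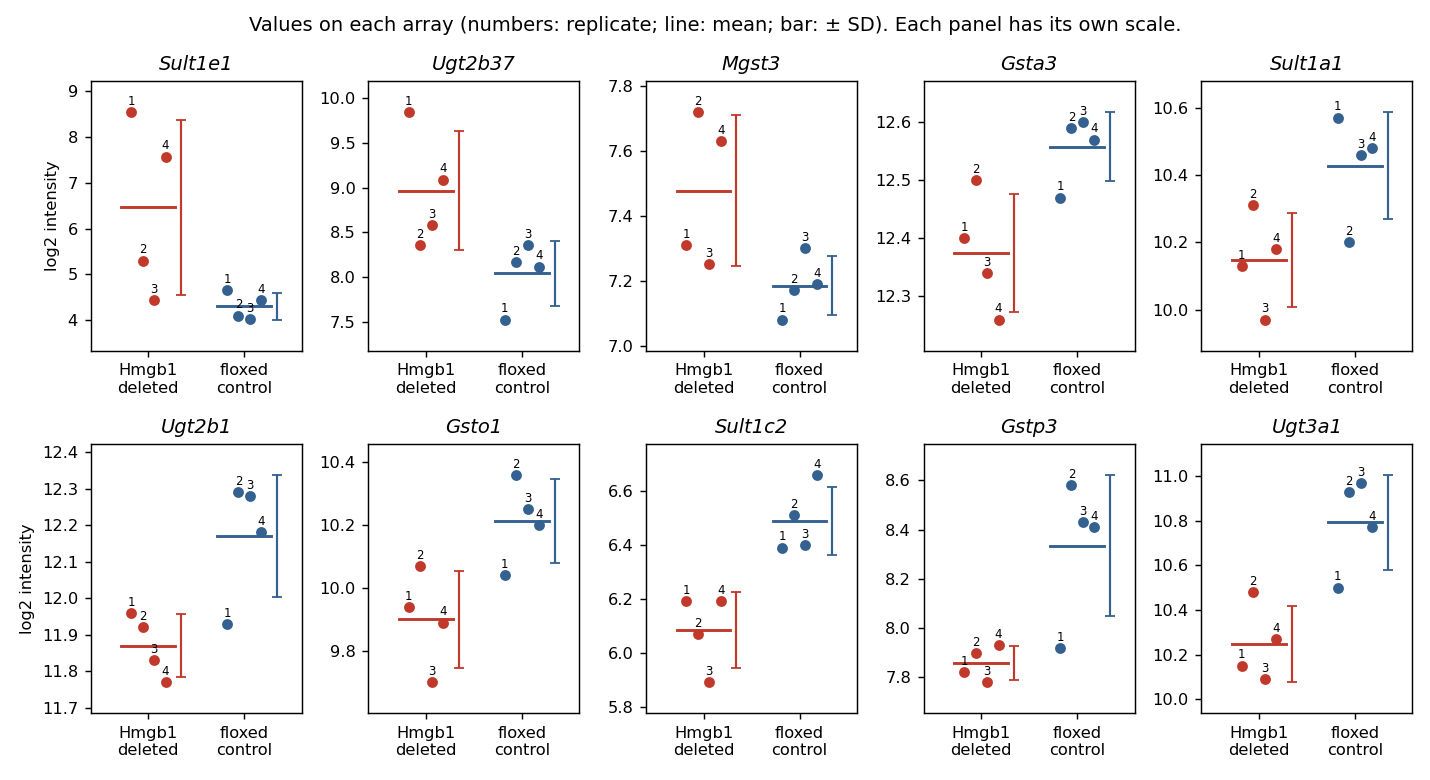
Each panel plots the log2 intensity of 1 of the 10 members with an unadjusted p under 0.05 on the 4 Hmgb1 deleted arrays (red, left) and the 4 floxed control arrays (blue, right). Small numbers give the replicate, horizontal lines the means and bars the SD, and each panel has its own scale. Sult1e1 and Ugt2b37 are highest on deleted arrays 1 and 4, while Sult1c2 and Ugt3a1 show no overlap.

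Of the 11 transferase members on chromosome 5, 8 Ugt2 genes and 3 Sult1 genes lie in a single run of 13 neighbouring protein-coding genes, with 0 others between them in RefSeq. In order these are Ugt2b34, Ugt2b1, Ugt2b35, Ugt2b36, Ugt2b5, Ugt2b37, Ugt2a3, Ugt2b38, Ugt2a1, Ugt2a2, Sult1b1, Sult1d1 and Sult1e1. Ugt2a1 and Ugt2a2 share a probe set and have no value of their own.

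**Figure D3:**
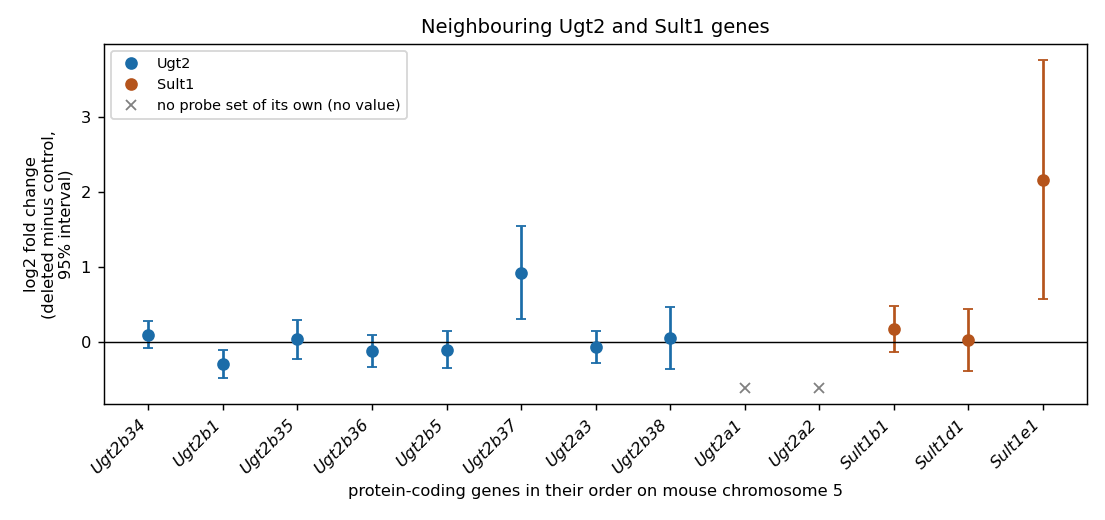
The genes of the chromosome 5 run stand in their order along the horizontal axis, and the vertical axis gives the log2 fold change (Hmgb1 deleted minus floxed control) with its 95% interval. Ugt2b37 at 0.92 and Sult1e1 at 2.16 lie above neighbours that differ by −0.30 to 0.165, and crosses mark the 2 genes without a value.

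Ugt2b37, a member of the Ugt2b family of steroid, bile acid and drug glucuronidating enzymes, had 9.84, 8.36, 8.58 and 9.09 on deleted arrays and 7.53, 8.17, 8.36 and 8.12 on control arrays. Deleted array 1 was the highest, deleted array 4 came next, and control array 1 was the lowest. Deleted array 2 equalled control array 3, so the groups touched. The means were 8.97 ± 0.66 in deleted livers and 8.04 ± 0.36 in control livers (SD, n = 4 each), a log2 fold change of 0.92 (SE 0.28, 95% interval 0.30 to 1.55, adjusted p = 0.238). It ranked 11 among all genes by log2 fold change, and without deleted array 1 it was 0.632.

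Ugt2b1, another enzyme of this family, had 11.96, 11.92, 11.83 and 11.77 on deleted arrays and 11.93, 12.29, 12.28 and 12.18 on control arrays. Control array 1 lay within the deleted range and the other 3 control arrays above it (log2 fold change −0.30, SE 0.087, adjusted p = 0.205). Without floxed control 1 the difference was −0.38 and passed the threshold (adjusted p = 0.021). Of the remaining Ugt2 members, Ugt2b34 differed by 0.09 and Ugt2b36 by −0.125, each with overlapping groups. Ugt2a3, Ugt2b5, Ugt2b35 and Ugt2b38 differed by −0.107 to 0.045, with adjusted p of 0.936 or more.

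The promoters of the Ugt2b genes are shown because these related genes, of which Ugt2b37 and Ugt2b38 have the most similar promoters, gave different values. The promoters of all 7 Ugt2b members, and of Ugt3a1, hold GTT and TTAAC separated by 5 bases of any kind, a pattern bound by hepatocyte nuclear factor 1 (HNF1), a liver transcription factor. Each window is RefSeq sequence (GRCm38.p6), with the match in capitals and 8 bases on either side.
Ugt2b37: aaatgcaaGTTATAGTTTAACctctgggc
Ugt2b38: aaatgcaaGTTATAGTTTAACctctgggc
Ugt2b5: caatgcaaGTTATAGTTTAACctctgggc
Ugt2b36: caattccaGTTATATTTTAACttcttggc
Ugt2b35: caactcagGTTATATTTTAACtcgtggat
Ugt2b34: gtgtacaaGTTACACTTTAACtgactgat
Ugt2b1: ggttagaaGTTATATGTTAACttcttgat
Ugt3a1: taggacaaGTTAAAAATTAACtcttcacc

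The windows lie at chr5:87254846-87254874, minus strand (Ugt2b37), chr5:87424247-87424275, minus strand (Ugt2b38), chr5:87140381-87140409, minus strand (Ugt2b5), chr5:87092599-87092627, minus strand (Ugt2b36), chr5:87000782-87000810, plus strand (Ugt2b35), chr5:86906990-86907018, minus strand (Ugt2b34), chr5:86926572-86926600, minus strand (Ugt2b1) and chr15:9279691-9279719, plus strand (Ugt3a1). Searched on both strands, the pattern was present in 8 of 40 promoters of 34 members (20%), against 0.575% of all 32851 RefSeq promoters of the same length. The pattern was chosen after these sequences were seen, and the Ugt2b genes are related copies, so the share is a description. A match is not evidence of binding, and the 8 genes that carry it had log2 fold changes from −0.545 (Ugt3a1) to 0.92 (Ugt2b37).

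The full promoters of Ugt2b37 (chr5:87254739-87255038, minus strand) and Ugt2b38 (chr5:87424154-87424453, minus strand) were 87.3% identical, the highest of 780 pairs, whose median was 49.0%. Capitals mark the same 3 matches in each, in order the FOX-type TGTTTAC (on the opposite strand), the HNF1-type pattern and the half-site AGGTCA, which do not overlap.
Ugt2b37 promoter: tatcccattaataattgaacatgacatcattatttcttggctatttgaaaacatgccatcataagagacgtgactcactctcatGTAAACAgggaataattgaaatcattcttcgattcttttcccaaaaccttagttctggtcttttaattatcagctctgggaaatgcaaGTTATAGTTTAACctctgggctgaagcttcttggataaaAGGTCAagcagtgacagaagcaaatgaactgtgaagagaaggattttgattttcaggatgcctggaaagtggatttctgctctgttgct
Ugt2b38 promoter: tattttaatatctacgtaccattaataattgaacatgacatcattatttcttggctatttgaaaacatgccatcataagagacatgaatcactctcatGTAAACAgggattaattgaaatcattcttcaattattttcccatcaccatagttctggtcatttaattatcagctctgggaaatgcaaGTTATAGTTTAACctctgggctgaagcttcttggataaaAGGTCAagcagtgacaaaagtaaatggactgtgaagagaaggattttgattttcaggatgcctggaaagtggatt

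Beside these like promoters, Ugt2b37 differed by 0.92 and Ugt2b38 by 0.045 (SE 0.19, adjusted p = 0.992). Ugt2b38 had 10.11, 9.79, 9.78 and 9.93 on deleted arrays and 9.30, 9.93, 10.41 and 9.79 on control arrays, and its control arrays spanned the whole deleted range. Whether probes of either gene also bind transcripts of the other was not tested. TGTTTAC was present in 10% of the members' promoters against 3.65% of all promoters, and AGGTCA in 22.5% against 16.3%. The antioxidant response element core TGACNNNGC was present in 5.0% against 12.4%, and the STAT-type TTCNNNGAA in 7.5% against 8.3%.

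Ugt3a1 had the lowest adjusted p of all members. Its product is a glycosyltransferase that in humans uses UDP-N-acetylglucosamine rather than UDP-glucuronic acid. It had 10.15, 10.48, 10.09 and 10.27 on deleted arrays and 10.50, 10.93, 10.97 and 10.77 on control arrays. All deleted arrays lay below all control arrays, by a narrow gap between deleted array 2 and control array 1. The log2 fold change was −0.545, a 1.46-fold difference (SE 0.11, 95% interval −0.80 to −0.29, adjusted p = 0.0703). It passed the threshold under 6 of 18 alternatives, among them without floxed control 1 (−0.642, adjusted p = 0.00973). Its neighbour Ugt3a2 had 12.05, 12.13, 11.82 and 11.77 on deleted arrays and 11.75, 11.94, 12.00 and 11.93 on control arrays. These groups overlapped (log2 fold change 0.04, SE 0.092, adjusted p = 0.99). Both probe sets that carry the symbols of Ugt3a1 and Ugt3a2 together differed by −0.1475 and −0.1325.

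Of the glutathione transferases, all 6 of the kappa, omega, pi and zeta classes had a lower mean in the deleted livers (4 of 6 with quantile normalization, where Gstk1 and Gstz1 turned positive, and 5 of 6 with centred arrays), with a median log2 fold change of −0.14 and 0 past the threshold. Gstp3, a pi class gene, had 7.82, 7.90, 7.78 and 7.93 on deleted arrays and 7.92, 8.58, 8.43 and 8.41 on control arrays. Control array 1 lay within the deleted range, while the other 3 control arrays were well above it. The log2 fold change was −0.4775 (SE 0.12, adjusted p = 0.138), and without floxed control 1 it was −0.616 and passed the threshold (adjusted p = 0.00197).

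Gsto1, an omega class enzyme that reduces dehydroascorbate, had 9.94, 10.07, 9.70 and 9.89 on deleted arrays and 10.04, 10.36, 10.25 and 10.20 on control arrays. The deleted arrays lay below the control arrays except for deleted array 2, which was above control array 1 (log2 fold change −0.3125, SE 0.092, adjusted p = 0.21). Gstp1, the best-known pi class enzyme, differed by −0.17 (SE 0.11, adjusted p = 0.79). Gstk1, found in mitochondria and peroxisomes, differed by −0.11, and Gstz1, which acts in tyrosine breakdown, by −0.02. Gsto2 differed by −0.05.

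In the alpha class, Gsta3, which in the mouse detoxifies aflatoxin epoxide, had 12.40, 12.50, 12.34 and 12.26 on deleted arrays and 12.47, 12.59, 12.60 and 12.57 on control arrays. Only deleted array 2 reached into the control range (log2 fold change −0.18, SE 0.068, adjusted p = 0.364). Gsta4, which conjugates the lipid peroxidation product hydroxynonenal, had 10.21, 10.53, 9.78 and 10.24 on deleted arrays and 9.76, 10.24, 10.07 and 10.02 on control arrays. The groups overlapped (log2 fold change 0.17, SE 0.15, adjusted p = 0.894).

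Of the membrane-bound enzymes, Mgst3, which has glutathione transferase and peroxidase activity on lipids, had 7.31, 7.72, 7.25 and 7.63 on deleted arrays and 7.08, 7.17, 7.30 and 7.19 on control arrays. Deleted arrays 2 and 4 were well above all control arrays, deleted array 1 was just above them and deleted array 3 lay within their range (log2 fold change 0.29, SE 0.11, adjusted p = 0.352). Mgst1, the abundant microsomal enzyme of liver, differed by −0.13 (SE 0.080, adjusted p = 0.764), and Mgst2 by −0.06.

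Among the arrays, the members' values were unevenly distributed. The median deviation of the 37 genes from their own means was −0.104 on deleted array 3 and −0.0975 on deleted array 4, and it lay between −0.02 and 0.0563 on the other 6 arrays. The lowest of the 8 values fell on deleted array 4 for 11 members, on control array 1 for 10 and on deleted array 3 for 9. On deleted array 4 the hepatocyte markers were also low, as given above, while on deleted array 3 their summed level was 16.43 and albumin 13.93. The median deviation of all genes was −0.03 on deleted array 4 and 0.02 on deleted array 3. The part of these shifts in the members' values was not tested.

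Not every family gene had a value. RefSeq lists 56 genes of these families, of which 37 had a probe set of their own. A further 17 were carried only on probe sets that list several symbols, and 2, Ugt1a8 and Sult2a7, had none named here. The Ugt1a genes, which include the bilirubin enzyme Ugt1a1, and whose transcripts share exons, were all in the shared class apart from Ugt1a8. Their common probe set had 10.77, 10.81, 10.80 and 10.76 on deleted arrays and 10.72, 10.80, 11.01 and 10.83 on control arrays. The groups overlapped, at a log2 fold change of −0.055. The shared probe sets of these families numbered 12, among them both that list Ugt3a1 and Ugt3a2 alone. Across these 12 the log2 fold changes ran from −0.17 to 0. In the limma fit of all 35556 probe sets, in which 0.295% were called, 0 of them passed the threshold. Nor had any an unadjusted p under 0.05.

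Of the 11 mu and theta class genes that were left out of the 37, 3 passed the threshold (27.3%, against 0.692% of all genes), 1 higher and 2 lower in the deleted livers. With centred arrays 0 of the 11 passed, and the difference between the classes was not tested.

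The transferases depend on cofactors, transport and control, and 75 of 80 listed genes with such roles were measured. The threshold was passed by 5 of the 75, all lower in the deleted livers, against 0.396% of all genes lower and 0.692% in either direction. By mean, 31 were higher and 44 lower (34 and 40 with quantile normalization, 33 and 41 with centred arrays), with a median log2 fold change of −0.0325. The 5 were Nat8, Ppara, Slc22a7, Slco1a4 and Slco1b2. An unadjusted limma p under 0.05 was found for 22 of the 75 (29.3%), against 9.46% of all genes. The median size of the difference in the 75 genes was 0.102. The list was chosen with earlier results of these data known, so these shares are only a description. Of the 75 genes, 63 were brighter than the median gene, and they were not compared with genes of equal brightness.

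Nat8, which acetylates cysteine conjugates in the last step from a glutathione conjugate to a mercapturic acid, had 7.52, 7.52, 7.22 and 7.44 on deleted arrays and 7.87, 7.87, 7.99 and 7.88 on control arrays. All deleted arrays lay below all control arrays, and Nat8 fell (log2 fold change −0.4775, SE 0.077, adjusted p = 0.0219). The call was lost without deleted array 4 or without any of control arrays 2, 3 and 4 (adjusted p 0.0573 to 0.0907).

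Slc22a7, an organic anion transporter of the hepatocyte's blood side, fell by 1.48 (log2; adjusted p = 1.1e-05, SE 0.072), with 6.85 to 7.03 on deleted arrays and 8.31 to 8.57 on control arrays. Slco1a4, an uptake transporter of bile acids and steroid conjugates, fell by 1.45 (SE 0.27, adjusted p = 0.043). Slco1b2, which takes up bilirubin and bile acids, fell by 0.36 (SE 0.065, adjusted p = 0.0367). Ppara, the fatty acid receptor that also controls conjugation genes, fell by 0.49 (SE 0.088, adjusted p = 0.0367). The calls of Slco1a4, Slco1b2 and Ppara did not hold when single arrays were left out, and with arrays centred on their medians Slc22a7 alone of the 5 passed. For Slco1b2 and Ppara this was so for each of the 4 deleted arrays and for control arrays 2, 3 and 4 (adjusted p 0.0609 to 0.131 and 0.0653 to 0.164), and for Slco1a4 for deleted arrays 1, 3 and 4 and the same control arrays (adjusted p 0.0759 to 0.173).

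On the supply side, Ugdh, which makes UDP-glucuronic acid, had 11.22, 11.15, 11.08 and 11.07 on deleted arrays and 10.77, 10.87, 10.81 and 10.85 on control arrays. All deleted arrays lay above all control arrays, but the log2 fold change of 0.305 (SE 0.060) had a limma adjusted p of 0.0528. Without floxed control 1 it was 0.287 and passed the threshold (adjusted p = 0.0481). It also passed with the dim-gene filter, quantile normalization and array weights (adjusted p 0.0457, 0.0103 and 0.0132). With any other array left out it did not (adjusted p 0.105 to 0.179). Ugp2, which makes UDP-glucose for Ugdh, differed by −0.20 (adjusted p = 0.714). Papss2, which makes PAPS, had 11.18, 11.43, 11.26 and 11.04 on deleted arrays and 10.97, 10.82, 10.97 and 11.04 on control arrays. Deleted array 4 equalled control array 4, and the other deleted arrays lay above all control arrays (log2 fold change 0.28, SE 0.087, adjusted p = 0.25). Slc26a1, a sulfate transporter, differed by −0.21 (adjusted p = 0.288), and Oplah, an enzyme of glutathione turnover, by 0.19 (adjusted p = 0.333).

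Among the other roles, Nr1i2, the pregnane X receptor that induces Ugt, Sult and Gst genes, had 9.53, 9.58, 9.63 and 9.62 on deleted arrays and 9.93, 9.70, 9.81 and 9.90 on control arrays. All deleted arrays lay below all control arrays (log2 fold change −0.245, SE 0.066, adjusted p = 0.167). Nnmt, which methylates nicotinamide, differed by 0.335 (adjusted p = 0.298) and Ephx1, the microsomal epoxide hydrolase, by 0.26 (adjusted p = 0.625). The sulfatases Arsb and Arsg differed by 0.23 and −0.175 (adjusted p 0.411 and 0.605).

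**Figure D4:**
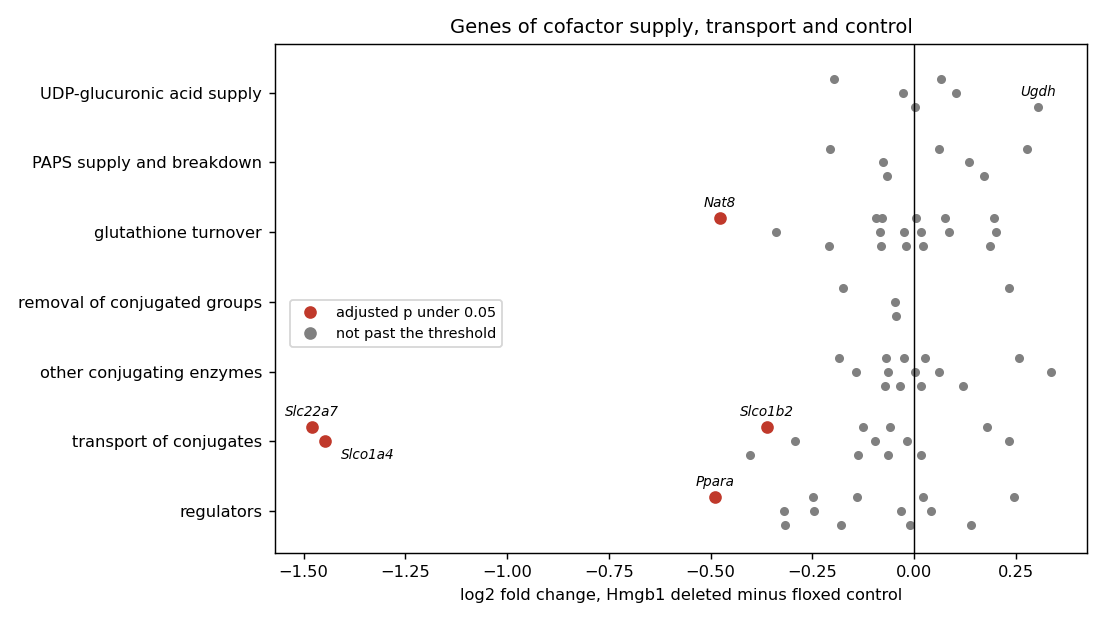
Each point is 1 of the 75 measured genes of cofactor supply, transport, control and related conjugation, placed by its log2 fold change (Hmgb1 deleted minus floxed control) on the horizontal axis and by role down the page. Red points mark the 5 genes past the threshold, all left of 0, and Ugdh at 0.305 is labelled as the farthest right of its role.

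The transferases were recounted under other settings. The count past the threshold was 0 of the 37 as reported, against 138 of all genes. A filter on dim genes, which kept 24 of the members, gave 1 (161 of all genes kept). The count was 2 with quantile normalization (264) and 2 with the replicate number as a block (325). It was 4 with array weights (526) and 4 without floxed control 1 (321). With floxed control 1 and deleted array 4 both left out, it was 3 (223). The other 12 settings gave 0 members and 37 to 135 of all genes. In the 6 settings with calls, the members called were among Ugt3a1, Sult1c2, Gstp3 and Ugt2b1, all lower in the deleted livers.

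**Figure D5:**
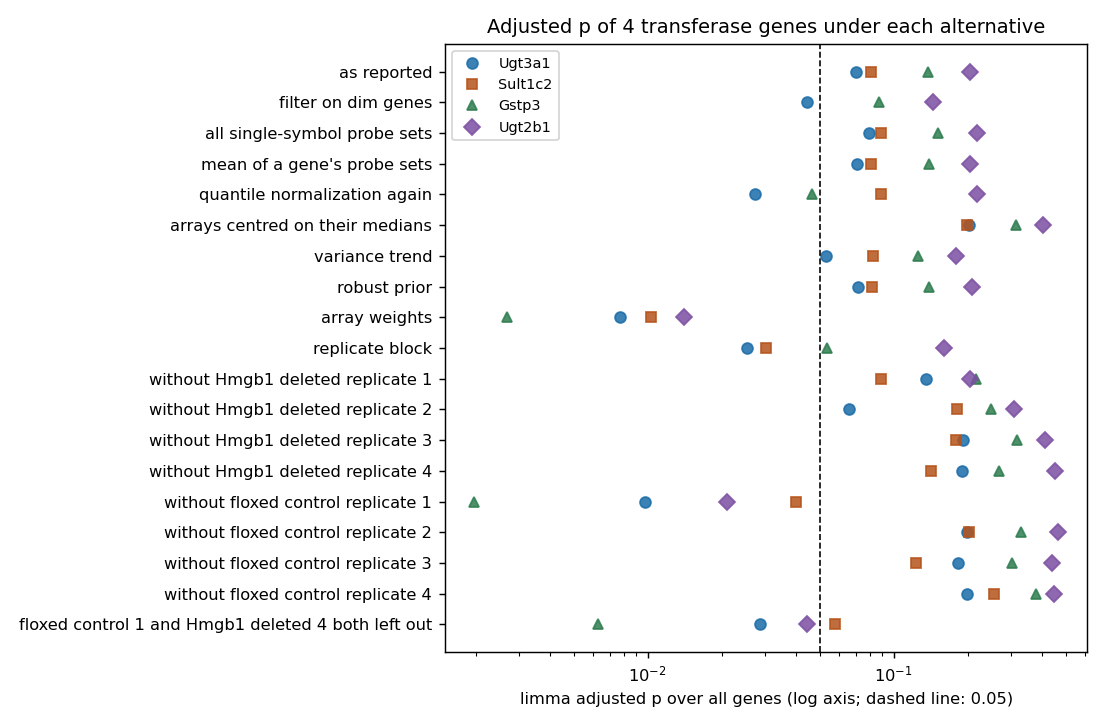
The horizontal log axis gives the limma adjusted p of Ugt3a1, Sult1c2, Gstp3 and Ugt2b1 under each setting down the page, and the dashed line marks 0.05. All 4 lie left of the line with array weights and without floxed control 1, and none does in the values as reported.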

How the data were processed

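RNA of 8 mouse liver samples was read on Affymetrix Mouse Gene 1.0 ST arrays. Per the labels' protocols, 150 ng of RNA was amplified and labelled. The authors deposited log2 intensities, given to 2 decimals and made with RMA (background correction, normalization between arrays, summary of probes), per the submitters' processing notes. The sources used here give neither the genome build nor software versions. Array medians lay between 6.08 and 6.22.

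Of 35556 probe sets, GEO's array annotation gave 1 gene symbol to 21789, several to 1621 and none to 12146. Each of 19939 genes was represented by its probe set with the highest mean over the 8 arrays. The 4 deleted and 4 control arrays were compared without covariates by the moderated 2-sided test of limma 3.58.1 (R 4.3.3; lmFit, eBayes), with Benjamini-Hochberg adjustment over all genes and a threshold of 0.05. Intervals and standard errors (SE) come from that fit. Whether every array came from its own animal is not stated in the labels, and p-values measure only the spread between arrays, which may be technical. Arrays give no read depth, and precision was limited by their number.

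The members and gene lists were chosen with earlier results of these data known. Members were named where the unadjusted p was under 0.05, where they were among the 3 brightest of their class, or where they had the highest or lowest fold change. Every pathway gene past the threshold, and the 2 of smallest p in each role, were named. The remaining members are given by value or range and were chosen after their values were seen. A further 54 of 59 listed markers of liver cell types were measured.

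Promoter sequences, gene order and chromosomes come from RefSeq tables of GRCm38.p6. Promoters were aligned with Biopython 1.88, with Python 3.11.15 and matplotlib 3.10.9 for tables and figures. Alternatives were each array left out, array weights, replicate numbers as a block, repeated quantile normalization, centred arrays, a dim-gene filter, all single-symbol probe sets, averaged probe sets, a variance trend and a robust prior. Leaving out floxed control 1 and deleted array 4 together was added after seeing the data. The scripts were tested on simulated data.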

Additional observations from a re-analysis of the deposited data

Results flagged for a closer look

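In 6 of 86 groups of 4 arrays, drawn from the named members and pathway genes, 1 value lay apart from the other 3 by Dixon's test. Chance gives about 1 in 20, or 4.3 of 86. Sult1d1 was 10.25 on deleted array 3 against 10.94 to 11.08 on the other deleted arrays. Sult1b1 was 7.47 on control array 1 against 7.82 to 7.87 on the other controls. Gstk1 was 12.26 on control array 2 against 12.33 to 12.34. Arsb was 8.72 on control array 1 against 8.99 to 9.04, and Ugp2 was 9.91 on the same array against 10.20 to 10.25. Nat8 was 7.99 on control array 3 against 7.87 to 7.88. Control array 1 held 3 of the 6 values.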

How the results depend on the processing

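The count of transferase genes past the threshold, 0 as reported, was 1 of the 24 members kept by the filter on dim genes. It was 2 with quantile normalization, 4 with array weights and 0 to 4 with 1 array left out. With floxed control 1 and deleted array 4 both left out (chosen after seeing the data), it was 3. The count over all genes, 138, was 264 with quantile normalization, 61 with centred arrays, 526 with array weights, 223 with both arrays left out and 37 (without deleted array 4) to 321 (without floxed control 1) with 1 array left out. The pathway count, 5, was 1 with centred arrays, 9 with array weights and 1 to 8 with 1 array left out. The members' median log2 fold change, −0.05, stayed below 0. It was −0.107 over the 24 members kept by the dim-gene filter. Over all 37 it was −0.0127 with quantile normalization, −0.03 with centred arrays and −0.0167 with both arrays left out. With 1 array left out it was −0.0825 (without deleted array 1) to −0.015 (without deleted array 4). With the replicate number as a block, the counts were 2 transferase genes and 325 of all genes. The numbers were not treated as pairs: same-numbered arrays correlated at −0.0814 to 0.447, and 2 of 4 correlated best with their own number. Of 479 values of 27 named members over 18 alternatives, 446 kept direction and side of the threshold, 16 newly passed it and 17 changed sign, and the cause was not tested. Sign changes came with quantile normalization (Gstk1 0.00172, Gstz1 0.0523), array weights (Mgst2 0.00262), and both arrays left out (Mgst2 0.0767, Sult1b1 −0.00667, Sult2b1 0.0433). With 1 array left out the ranges that crossed 0 were −0.0617 to 0.215 for Sult1d1, −0.025 to 0.095 for Ugt3a2, −0.0675 to 0.0308 for Gstz1, −0.126 to 0.0108 for Sult2b1 and −0.126 to 0.0358 for Mgst2. Hmgb1 itself lost its call without deleted array 3 or 4 or control array 3 or 4 (adjusted p 0.0561 to 0.0797). No detection flags were available, so a dim gene's fold change may be understated.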

Other observations

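The following 3 genes that are no transferases, chosen after their values were seen, also had their extreme value on deleted array 1, where Sult1e1 was highest. BC018473 had 7.36, 5.55, 5.56 and 6.14 on deleted arrays and 5.65, 5.48, 5.40 and 5.51 on control arrays, so deleted arrays 1 and 4 were the highest for it too. Nr1d1, a repressor of the circadian clock, had 9.30, 10.02, 11.15 and 10.39 on deleted arrays and 10.75, 11.04, 11.28 and 11.09 on control arrays. Rgs16, a regulator of G protein signalling, had 7.46, 8.30, 9.19 and 8.27 on deleted arrays and 10.75, 9.61, 11.24 and 11.03 on control arrays. For Nr1d1 and Rgs16 deleted array 1 was the lowest of the 8 and deleted array 3 the highest of the deleted arrays. Collection times of the livers were not analysed here, and no relation between these genes and Sult1e1 was tested.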
